A study of Mus musculus with 12 samples.

Results

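The genes described here are 10 inflammatory cytokines and chemokines of mouse liver: the cytokines Tnf, Il1b and Il6, the CC chemokines Ccl2, Ccl3, Ccl4 and Ccl5, and the CXC chemokines Cxcl1, Cxcl9 and Cxcl10. They were chosen by gene symbol, with earlier results of these data known. All 10 had 1 probe set with a single symbol among the 22184 genes tested. Liver RNA came from 12 male C57BL6 mice, with 1 Affymetrix array each and 3 biological replicates per group. High-fat MSX mice ate a diet with 45% of energy from fat that held 0.5% (w/w) of MSX, a phenol-enriched extract of maple syrup. High-fat control mice ate that diet without extract. Low-fat MSX mice ate a diet with 10% of energy from fat and 0.5% MSX, and low-fat control mice ate it without extract. Feeding ran for 12 weeks in all 4 groups, between 6 and 18 weeks of age. Values are on the log2 scale, as deposited, so that a difference of 1 is a 2-fold change. Levels of different genes were not set against each other, since probe sets differ in brightness at equal RNA.

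Cytokines and chemokines are small secreted proteins that carry inflammatory signals between cells. Tumour necrosis factor and interleukin 1 beta act on resident cells through receptors that activate the transcription factor NF-kappaB, and interleukin 6 acts on hepatocytes through STAT3 to raise acute phase proteins. Chemokines draw leukocytes along a gradient, CC chemokines mainly monocytes and T cells, Cxcl1 neutrophils, and Cxcl9 and Cxcl10 activated T cells through Cxcr3. In obesity-linked fatty liver these signals are known mainly from Kupffer cells, the macrophages of the liver, from recruited monocytes and from stressed hepatocytes.

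The promoters were examined because several of these genes are textbook targets of NF-kappaB. RefSeq promoter sequences (GRCm38.p6) were at hand for 7 of the 10, namely Tnf, Il1b, Il6, Ccl3, Cxcl1, Cxcl9 and Cxcl10. In the 250 bases upstream of the annotated start, both strands were searched for the kappaB consensus, for the core of the interferon-stimulated response element (GAAA, any 2 bases, then GAAA) and for the AP-1 consensus (TGANTCA). The kappaB consensus was found in Il6, Cxcl1 and Cxcl10, 3 of 7, and in 3.90% of all 32851 promoters of the table. The 3 sequences below are shown 5′ to 3′ on the strand of the gene, with every match in capitals, because they hold the kappaB matches of a gene that stayed dim in all arrays (Il6) and of both CXC chemokines with the smallest unadjusted p in the diet comparison.
Il6: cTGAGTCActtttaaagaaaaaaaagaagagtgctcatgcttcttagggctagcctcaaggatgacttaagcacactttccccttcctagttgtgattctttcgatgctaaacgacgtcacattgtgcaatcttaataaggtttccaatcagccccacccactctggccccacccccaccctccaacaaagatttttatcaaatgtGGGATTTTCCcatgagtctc
Cxcl1: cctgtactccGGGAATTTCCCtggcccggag
Cxcl10: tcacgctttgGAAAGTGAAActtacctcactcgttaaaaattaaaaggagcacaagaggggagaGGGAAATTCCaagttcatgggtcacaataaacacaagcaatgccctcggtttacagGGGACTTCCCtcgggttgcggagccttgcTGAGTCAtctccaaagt

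The Il6 stretch lies at chr5:30012864-30013089 on the plus strand, that of Cxcl1 at chr5:90891164-90891194 on the plus strand and that of Cxcl10 at chr5:92348947-92349112 on the minus strand. In Il6 the kappaB match began 44 bases before the start and an AP-1 match 249 bases before it. In Cxcl1 overlapping kappaB matches on both strands began 71 and 70 bases before the start. Cxcl10 held 2 kappaB matches, beginning 159 and 103 bases upstream, an AP-1 match 74 bases upstream, and the interferon element 213 bases upstream. That element was in 2.98% and the AP-1 consensus in 6.75% of all promoters. Tnf, Il1b, Ccl3 and Cxcl9 held none of these letters in this window. A match is a run of letters and was not tested for binding.

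**Figure D1:**
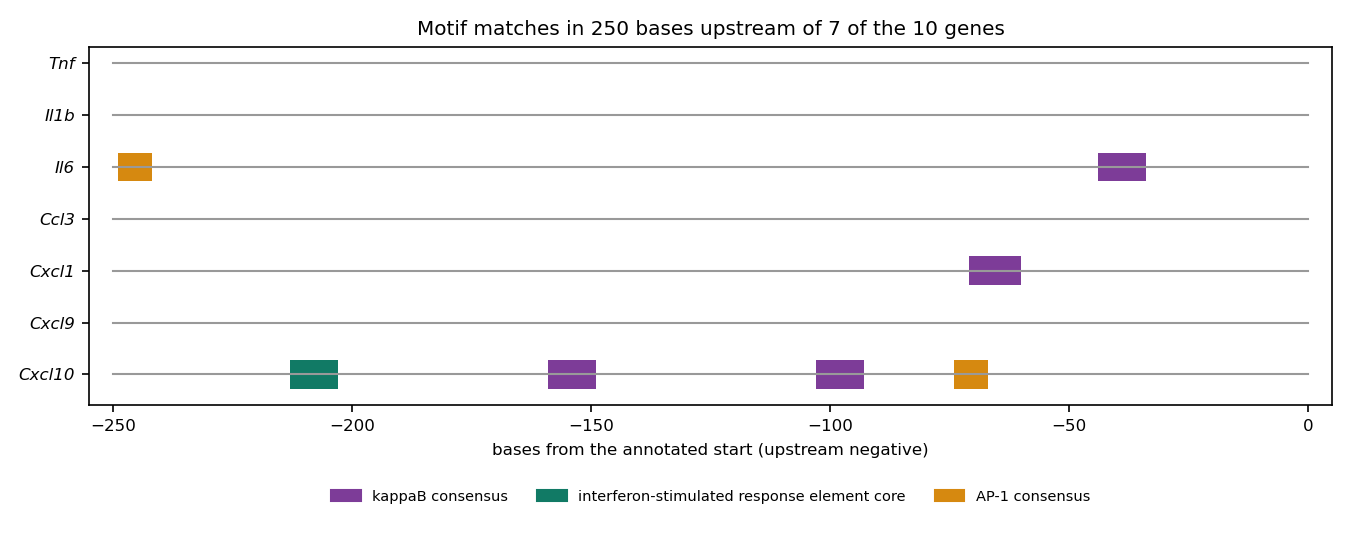
Matches to 3 motifs in the 250 bases upstream of the annotated start for the 7 genes with a promoter in the table, with distance from the start in bases on the x axis and 1 line per gene. Cxcl10 held 4 matches, 2 of them to the kappaB consensus, Cxcl1 a pair of overlapping kappaB matches, Il6 a kappaB and an AP-1 match, and the other 4 genes none.

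Array medians lay between 4.68 and 4.75, and correlations between arrays between 0.973 and 0.984. The 8 hepatocyte markers averaged between 6.42 (Ass1) and 13.92 (Alb, albumin). As a guide to dim probe sets, 95% of 1430 odorant, pheromone and bitter taste receptor genes averaged below 4.69. The means of 7 of the 10 cytokine and chemokine genes lay above that level. Il6 (2.50), Ccl3 (4.46) and Tnf (4.64) lay below it, within the range of those receptor genes. Tests were run with limma over all 22184 genes with Benjamini-Hochberg adjustment, and a gene passed at an adjusted p under 0.05. With 3 arrays per group, and nothing stating how the mice were housed or litters assigned, p-values measure differences against the spread between these arrays. In pieces of liver, more cells of a type and more RNA per cell cannot be told apart.

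The first comparison asked how the high-fat diet alone was related to these genes. Cxcl1, Cxcl10 and Ccl2 were higher in all 3 high-fat control arrays than in every low-fat control array, by 2.26-fold, 1.85-fold and 1.75-fold on average. None of the 10 genes passed the threshold over all genes, which 0.018% of the 22184 did. By the same limma fit 4 of the 10 had an unadjusted p under 0.05 in the upward direction, where 3.43% of all genes did, and 0 in the downward direction, where 3.34% did. Of those 4, Ccl3 averaged under the dim level, and with dim genes left out of the fit 3 remained. Groups did not overlap in the upward direction for 3 of 10, against 5.29% of all genes, and for 0 in the downward direction, against 6.09%. The median log2 difference of the 10 was 0.49, against −0.00 over all genes, and 8 of the 10 lay above 0.

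Cxcl1, the neutrophil chemoattractant, had log2 values of 6.61, 7.30 and 7.26 in high-fat control livers, against 5.71, 5.92 and 6.01 in low-fat control livers. The lowest high-fat control value exceeded the highest low-fat control value. The log2 difference was 1.18 (SE 0.30, unadjusted p = 0.00185, limma adjusted p = 0.418). Cxcl10, a ligand of Cxcr3 induced by interferon, had 5.98, 6.62 and 6.35 in high-fat control livers, against 4.97, 5.61 and 5.69 in low-fat control livers. These groups did not overlap either, and the log2 difference was 0.89 (SE 0.22, unadjusted p = 0.00135, adjusted p = 0.396). Both genes carry the kappaB matches printed above, as does Il6, which had 2.21, 2.40 and 2.56 in high-fat control livers, against 2.87, 2.14 and 2.29 in low-fat control livers. The Il6 groups overlapped, with a log2 difference of −0.04 (SE 0.20, adjusted p = 0.985).

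Ccl2, the main monocyte chemoattractant, had 5.88, 5.70 and 5.87 in high-fat control livers, against 4.93, 5.04 and 5.06 in low-fat control livers. It varied least within these groups among the 3 genes without overlap, with SDs of 0.10 and 0.07 (n = 3 each). Its log2 difference was 0.81 (SE 0.20, unadjusted p = 0.0012, adjusted p = 0.386). With any 1 of the 12 arrays left out, the adjusted p of Ccl2 ran from 0.116 to 0.691.

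The other CC chemokines were less even. Ccl3, a ligand of Ccr1, had 5.38, 4.76 and 4.45 in high-fat control livers, against 3.89, 4.30 and 4.82 in low-fat control livers. The groups overlapped, and the log2 difference of 0.53 (SE 0.24, adjusted p = 0.733) was 0.27 without high-fat control replicate 1, its highest array. Ccl5, a T cell and monocyte attractant, had 7.19, 6.44 and 6.51 in high-fat control livers, against 6.19, 6.36 and 6.64 in low-fat control livers. One array, high-fat control replicate 1, stood above the rest, and the log2 difference of 0.32 (SE 0.19, adjusted p = 0.803) was 0.08 without it. Ccl4, which neighbours Ccl3 in the RefSeq gene order, had 4.88, 5.53 and 4.99 in high-fat control livers, against 5.18, 5.62 and 4.81 in low-fat control livers. Its groups covered nearly the same range, with a log2 difference of −0.07 (SE 0.22, 95% interval −0.54 to 0.40, adjusted p = 0.978).

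Cxcl9, the other Cxcr3 ligand here, is separated from Cxcl10 in the gene order by a single protein-coding gene, Art3. It had 8.14, 8.33 and 8.17 in high-fat control livers, against 6.25, 8.47 and 8.04 in low-fat control livers. The high-fat control arrays lay close together, and a single low-fat control array, replicate 1, was low. The log2 difference was 0.62 (SE 0.50, adjusted p = 0.874), and −0.04 without that array. Il1b had 6.14, 5.84 and 5.25 in high-fat control livers, against 5.01, 4.49 and 6.40 in low-fat control livers, with the highest of these 6 values in a low-fat control array. Its log2 difference was 0.45 (SE 0.42, adjusted p = 0.898), with 0.04 when low-fat control replicate 2 was left out and 1.0 when replicate 3 was. Tnf had 4.96, 4.73 and 5.01 in high-fat control livers, against 4.77, 4.47 and 4.72 in low-fat control livers. The Tnf groups overlapped, with a log2 difference of 0.25 (SE 0.16, adjusted p = 0.823), and its mean over all arrays is under the dim level.

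**Figure D2:**
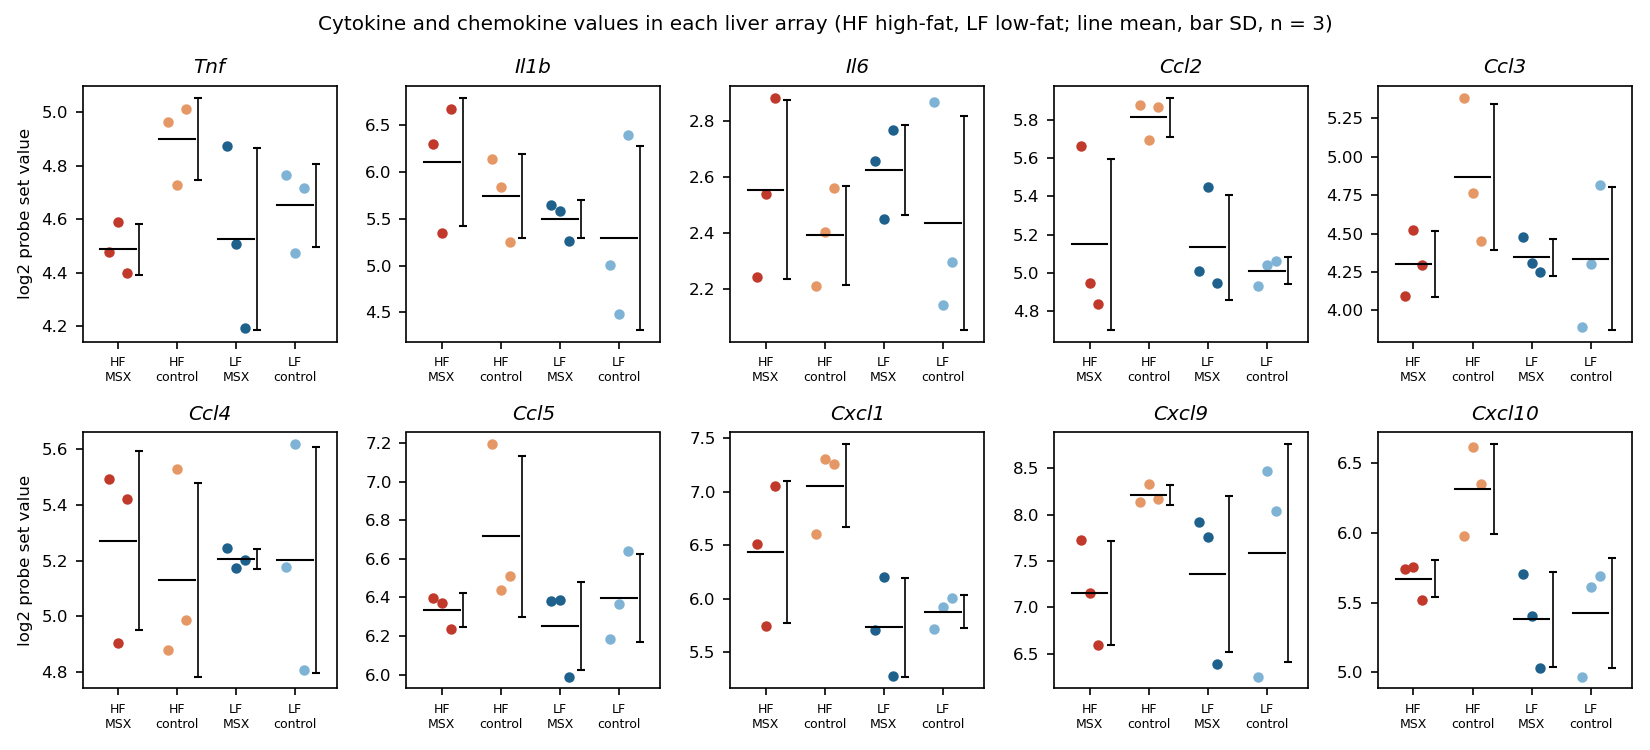
Log2 probe set values of the 10 genes in each of the 12 arrays, with 1 panel per gene, the 4 groups on the x axis, a line at the mean and a bar of 1 SD (n = 3), and a y axis that differs between panels. High-fat control arrays of Ccl2 (5.70 to 5.88), Cxcl1 (6.61 to 7.30) and Cxcl10 (5.98 to 6.62) lie above all 3 low-fat control arrays, while Il6 and Ccl4 overlap in all groups.

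The extract on the high-fat diet was examined in high-fat MSX minus high-fat control livers. This difference shares the high-fat control arrays with the comparison above, so that a high value there enters both, with opposite sign. Ccl2, Cxcl10, Tnf, Ccl5 and Cxcl9 were lower in all 3 high-fat MSX arrays than in every high-fat control array. None of the 10 genes passed the limma threshold, which 0.0361% of all genes did. At an unadjusted p under 0.05 there were 4 of 10 in the downward direction, against 3.51% of all genes, and 0 upward, against 3.48%. Those 4 were Ccl2, Cxcl10, Tnf and Ccl3, of which Tnf and Ccl3 averaged under the dim level. With dim genes left out of the limma fit, 2 remained. Groups did not overlap in the downward direction for 5 of 10, against 5.51% of all genes, and for 0 upward, against 6.69%. The median log2 difference was −0.49, against 0.01 over all genes, and 7 of the 10 lay below 0.

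Ccl2 had 5.66, 4.95 and 4.84 in high-fat MSX livers, against 5.88, 5.70 and 5.87 in high-fat control livers. High-fat MSX replicate 1 lay just under the control arrays and the other two far below them. The log2 difference was −0.67 (SE 0.20, unadjusted p = 0.00462, adjusted p = 0.527). Without high-fat MSX replicate 1 it was −0.93 with an adjusted p of 0.0954, the lowest of any of the 10 genes under the alternatives tried. Cxcl10 had 5.74, 5.76 and 5.52 in high-fat MSX livers, against 5.98, 6.62 and 6.35 in high-fat control livers. All 3 high-fat MSX values lay within a narrow range under the control arrays, with a log2 difference of −0.64 (SE 0.22, unadjusted p = 0.0119, adjusted p = 0.633).

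Cxcl9 had 7.72, 7.15 and 6.59 in high-fat MSX livers, against 8.14, 8.33 and 8.17 in high-fat control livers. The high-fat control group was tight (SD 0.10) and the high-fat MSX group wide (SD 0.56, n = 3 each). The log2 difference of −1.05 was larger in size than that of any of the other 9 genes, but so was its SE of 0.50 (unadjusted p = 0.0558, adjusted p = 0.726). Tnf had 4.48, 4.59 and 4.40 in high-fat MSX livers, against 4.96, 4.73 and 5.01 in high-fat control livers. It did not overlap, with a log2 difference of −0.41 (SE 0.16, unadjusted p = 0.0236, adjusted p = 0.647), and all 3 high-fat MSX values were under the dim level. Ccl5 had 6.40, 6.37 and 6.24 in high-fat MSX livers, against 7.19, 6.44 and 6.51 in high-fat control livers. Without high-fat control replicate 1 its log2 difference of −0.38 (SE 0.19, adjusted p = 0.75) was −0.14.

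Cxcl1 had 6.51, 5.74 and 7.06 in high-fat MSX livers, against 6.61, 7.30 and 7.26 in high-fat control livers. High-fat MSX replicate 3 reached into the control range, and the log2 difference was −0.62 (SE 0.30, adjusted p = 0.745), or −0.27 without replicate 2 and −0.93 without replicate 3 of the high-fat MSX group. Ccl3 had 4.09, 4.52 and 4.30 in high-fat MSX livers, against 5.38, 4.76 and 4.45 in high-fat control livers. Its groups overlapped by a single array, with a log2 difference of −0.56 (SE 0.24, adjusted p = 0.693), which was −0.30 without high-fat control replicate 1.

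The other 3 genes had log2 differences above 0. Il1b had 6.30, 5.34 and 6.68 in high-fat MSX livers, against 6.14, 5.84 and 5.25 in high-fat control livers, and the groups overlapped (log2 difference 0.37, SE 0.42, adjusted p = 0.932). Il6 had 2.24, 2.54 and 2.88 in high-fat MSX livers, and its log2 difference was 0.16 (SE 0.20, adjusted p = 0.936). Ccl4 had 5.49, 4.90 and 5.42 in high-fat MSX livers, with a log2 difference of 0.14 (SE 0.22, adjusted p = 0.957). For these 3 the 95% intervals ran from −0.55 to 1.28, from −0.27 to 0.59 and from −0.33 to 0.61 in the same order.

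On the low-fat diet the extract was set against low-fat control. None of the 10 passed the limma threshold, which 0.158% of all genes did. At an unadjusted p under 0.05 there were 0 of 10 in either direction, where 4.03% of all genes were higher and 4.03% lower. For 0 of 10 genes did the groups separate, against 7.13% of all genes upward and 6.73% downward. Log2 differences lay between −0.22 (Cxcl9) and 0.20 (Il1b), with a median of −0.02, against −0.00 over all genes.

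Ccl2 had 5.01, 5.45 and 4.94 in low-fat MSX livers, against 4.93, 5.04 and 5.06 in low-fat control livers, and its log2 difference of 0.12 had a 95% interval of −0.30 to 0.55. Cxcl10 had 5.70, 5.41 and 5.03 in low-fat MSX livers, against 4.97, 5.61 and 5.69 in low-fat control livers. Each group held both low and high arrays, and the interval of the difference ran from −0.52 to 0.43. Cxcl1 had 5.71, 6.20 and 5.28 in low-fat MSX livers, and its interval against low-fat control ran from −0.80 to 0.51. Cxcl9 was spread widely in both groups, with 7.92, 7.76 and 6.40 in low-fat MSX livers and an interval of −1.31 to 0.86. The Cxcl9 interval was more than 2 times as wide as those of Ccl2 and Cxcl10. Tnf had 4.87, 4.51 and 4.19 in low-fat MSX livers, and Il1b 5.65, 5.58 and 5.26. Ccl3 (4.48, 4.31 and 4.25), Ccl4 (5.24, 5.17 and 5.20), Ccl5 (6.38, 6.39 and 5.99) and Il6 (2.66, 2.45 and 2.77) in low-fat MSX livers also overlapped the low-fat control arrays.

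The diet comparison among mice given the extract set high-fat MSX against low-fat MSX. Again 0 of 10 passed the limma threshold, as did 0% of all genes. Cxcl1 was the only gene of the 10 with an unadjusted p under 0.05, where 2.38% of all genes were so in the upward direction and 2.18% in the downward direction. It had 6.51, 5.74 and 7.06 in high-fat MSX livers, against 5.71, 6.20 and 5.28 in low-fat MSX livers. Its groups overlapped, with a log2 difference of 0.70 (SE 0.30, unadjusted p = 0.0367, adjusted p = 0.999). Ccl2 had a log2 difference of 0.01 (95% interval −0.41 to 0.44) and Cxcl10 one of 0.29 (−0.18 to 0.77). The median over the 10 genes was 0.04, against 0.00 over all genes, and no gene had groups that did not overlap, against 4.68% of all genes upward and 4.76% downward.

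Whether the extract effect depended on the diet was tested as the difference of both extract effects, high-fat minus low-fat. None of the 10 passed, nor did any of all genes (0%). Ccl2 had the value farthest from 0 relative to its error, −0.79 (SE 0.28, unadjusted p = 0.0134, adjusted p = 0.955), and was the 1 of 10 with an unadjusted p under 0.05 downward, against 2.43% of all genes, with 0 upward, against 2.67%. Cxcl10 stood at −0.60 (SE 0.31, adjusted p = 0.955), Ccl3 at −0.57 (SE 0.34, adjusted p = 0.957) and Cxcl9 at −0.83 (SE 0.71, adjusted p = 0.981). The median of the 10 was −0.38, against 0.01 over all genes, and 8 of the 10 lay below 0. The extract effects on the 2 diets are therefore not shown to differ for any of these genes.

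**Figure D3:**
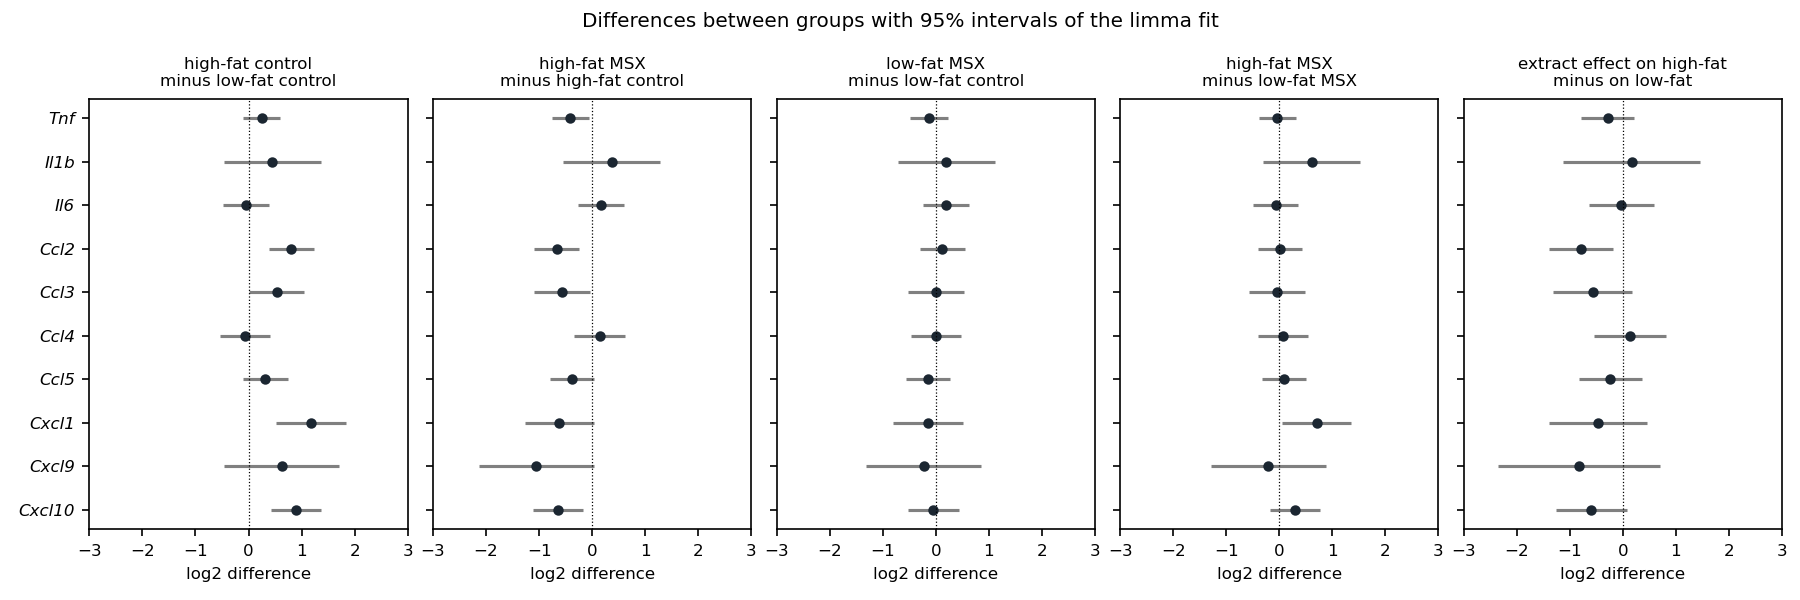
Log2 differences of the 10 genes in 5 comparisons, named above each panel, with the 95% interval of the limma fit as a line. In the diet comparison without extract the intervals of Ccl2 (0.38 to 1.23), Cxcl1 (0.52 to 1.83), Cxcl10 (0.42 to 1.36) and, barely, Ccl3 lie above 0, while on the low-fat diet all 10 intervals of the extract comparison include 0.

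Averaged over both extract states, the diet difference was 0.94 for Cxcl1 (SE 0.21, unadjusted p = 0.000711, adjusted p = 0.354), 0.59 for Cxcl10 (SE 0.16, adjusted p = 0.519) and 0.41 for Ccl2 (SE 0.14, adjusted p = 0.681). These 3 of 10 had an unadjusted p under 0.05 upward, against 2.88% of all genes, and 0 downward, against 3.06%. By limma 0 of 10 passed the threshold, which 0.0225% of all genes did. Averaged over both diets, the extract difference was −0.27 for Tnf (SE 0.11, unadjusted p = 0.0343, adjusted p = 0.47) and −0.34 for Cxcl10 (SE 0.16, unadjusted p = 0.046, adjusted p = 0.505). They were the 2 of 10 with an unadjusted p under 0.05 downward, against 4.46% of all genes, with 0 upward, against 5.2%. With dim genes left out of the fit, which removes Tnf, 1 remained. By limma 0 of 10 passed, against 0.261% of all genes. Il1b (0.28), Il6 (0.18) and Ccl4 (0.07) had average extract differences above 0.

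The order of the group means varied between genes. High-fat control had the highest mean for 7 of the 10 genes, all but Il1b, Il6 and Ccl4. For Ccl2, high-fat control was at 5.82 ± 0.10 (SD, n = 3), followed by high-fat MSX at 5.15 ± 0.45, low-fat MSX at 5.13 ± 0.28 and low-fat control at 5.01 ± 0.07, and those 3 neighbours lay within their spread. For Cxcl10, high-fat control was at 6.31 ± 0.32, high-fat MSX at 5.67 ± 0.13, low-fat control at 5.42 ± 0.40 and low-fat MSX at 5.38 ± 0.34. For Cxcl1 the means came in the same order as for Cxcl10, with both high-fat means above both low-fat means. They were 7.06 ± 0.39 in high-fat control, 6.44 ± 0.66 in high-fat MSX, 5.88 ± 0.15 in low-fat control and 5.73 ± 0.46 in low-fat MSX. Neighbours differed by less than their combined SDs. Both high-fat means lay above both low-fat means for Ccl2 and Il1b as well. Il1b was at 6.11 ± 0.69 in high-fat MSX, 5.74 ± 0.45 in high-fat control, 5.50 ± 0.21 in low-fat MSX and 5.30 ± 0.99 in low-fat control, with every step inside the spread.

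The 10 genes also differed in how far arrays of a group lay apart. Cxcl9 had a pooled SD within groups of 0.78, above 99.8% of all genes, and Il1b 0.65, above 99.6%. Cxcl1 had 0.45, above 97.8%, and Cxcl10 0.31, above 88.9%. Ccl2 (0.27) and Tnf (0.21) were steadier than these, but still above 80.4% and 58.8% of all genes.

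Markers of other cell types moved with part of these results. For each list, the median over its genes of the log2 value minus the gene's own mean over 12 arrays was taken in each array. The 10 cytokine and chemokine genes so summarised lay between −0.18 and 0.09 in high-fat MSX arrays, between 0.23 and 0.40 in high-fat control arrays, between −0.42 and 0.01 in low-fat MSX arrays and between −0.46 and 0.04 in low-fat control arrays. The 7 monocyte markers lay between −0.36 and 0.09 in high-fat MSX arrays, between 0.06 and 0.21 in high-fat control arrays, between −0.07 and 0.07 in low-fat MSX arrays and between −0.20 and −0.05 in low-fat control arrays. Only 3 of those 7 averaged above the dim level. The 13 macrophage and Kupffer cell markers, all 13 above it, lay at 0.52 and 0.35 in high-fat control replicates 1 and 2 and at −0.64 in replicate 3, in which the cytokine and chemokine median was 0.23. In high-fat MSX arrays the macrophage and Kupffer markers lay between 0.00 and 0.17, in low-fat MSX arrays between −0.15 and 0.26 and in low-fat control arrays between −0.45 and 0.16.

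The 8 stellate cell markers lay between −0.39 and −0.03 in high-fat MSX arrays, at 0.79, −0.18 and 0.13 in high-fat control arrays, between −0.05 and 0.30 in low-fat MSX arrays and between −0.34 and −0.05 in low-fat control arrays. Their median log2 difference was 0.52 for the diet without extract, and 0.27 without high-fat control replicate 1. There 4 of 8 had an unadjusted limma p under 0.05 upward and 0 downward, against 3.43% and 3.34% of all genes. Of the monocyte and of the macrophage and Kupffer markers 0 did in either direction. For the extract on the high-fat diet the stellate median was −0.33, and −0.047 without that array. There 3 of 8 were so downward and 0 upward, against 3.51% and 3.48% of all genes, as were 2 of 7 monocyte markers downward. In the difference of extract effects the stellate median was −0.70, with 4 of 8 so downward and 0 upward, against 2.43% and 2.67%. High-fat control replicate 1 also had cholangiocyte markers at 0.74. Without that array the median log2 difference of the 10 cytokine and chemokine genes between high-fat control and low-fat control was 0.26, and without low-fat control replicate 3 it was 0.80. Ccl2, Cxcl1 and Cxcl10 had log2 differences of at least 0.66 with any array of that comparison left out. Their groups did not overlap, so that leaving out an array could change the size of the difference but not its sign. Of 9 neutrophil markers 1 averaged above the dim level, and of 11 measured T and NK cell markers 3 did. The T and NK cell median lay between −0.05 and 0.15 in high-fat MSX arrays, between 0.09 and 0.12 in high-fat control arrays, between −0.13 and −0.07 in low-fat MSX arrays and between −0.08 and 0.04 in low-fat control arrays, so that all 3 high-fat control arrays lay above all 6 low-fat arrays. The neutrophil median lay between −0.21 and 0.08 in high-fat MSX arrays, between 0.03 and 0.16 in high-fat control arrays, between −0.13 and 0.08 in low-fat MSX arrays and between −0.05 and 0.05 in low-fat control arrays. The neutrophil marker S100a8 averaged 2.89 and the cytotoxic cell marker Gzma 2.81, both dim. The part of these cell types in the chemokine values was not tested.

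**Figure D4:**
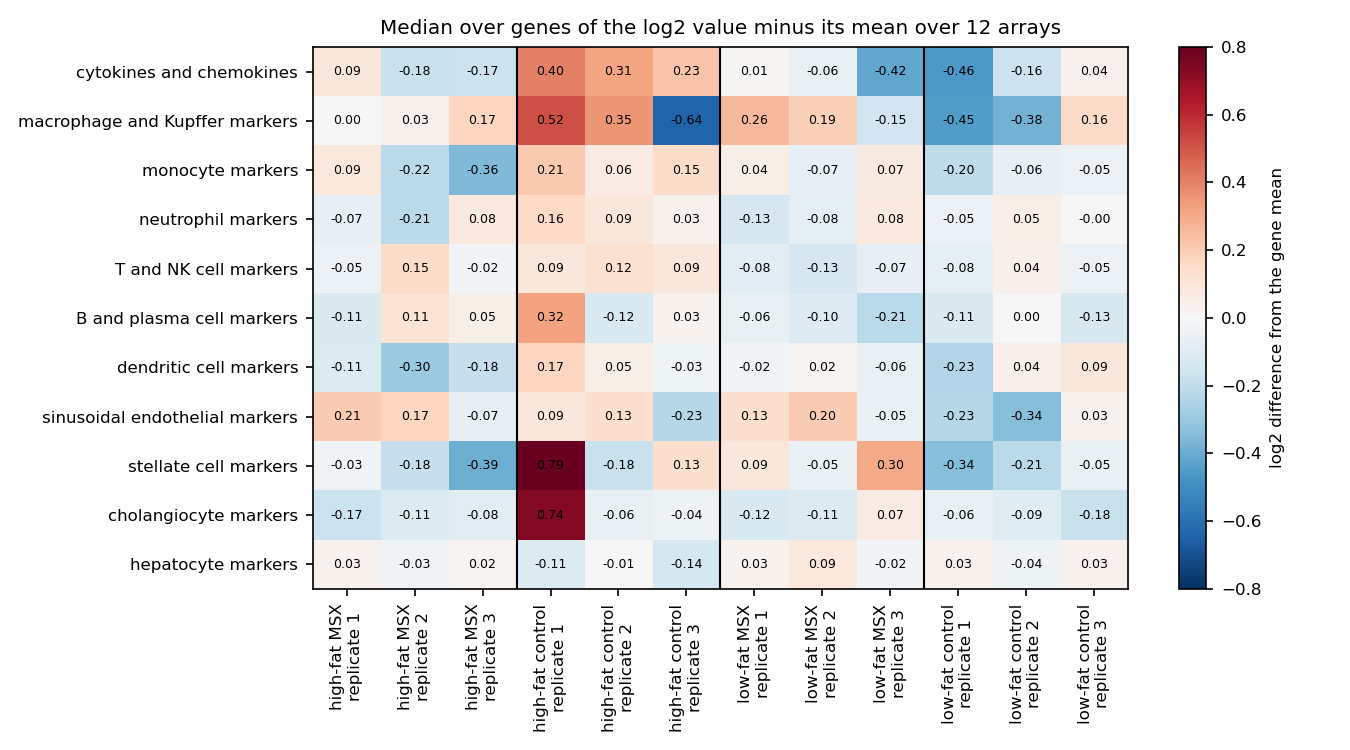
Median over the genes of each list of the log2 value minus the gene's mean over the 12 arrays, with arrays as columns ordered by group and lists as rows, and red above and blue below the mean. The row of the 10 cytokine and chemokine genes is above 0 in all 3 high-fat control arrays (0.23 to 0.40), while the macrophage and Kupffer row holds both 0.52 and −0.64 in that group.

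Further genes of the same pathways were read from lists written from general knowledge, with earlier results of these data known. Of 14 measured receptors of these cytokines and chemokines, 0 passed the limma threshold in any of the 7 comparisons. Ccr2, the receptor of Ccl2 on monocytes, was dim at 3.48 ± 0.29 in high-fat MSX livers and 3.96 ± 0.26 in high-fat control livers (log2 difference −0.48, adjusted p = 0.63). Tnfrsf1a, the main receptor of tumour necrosis factor, was at 9.06 ± 0.19 in high-fat control livers and 8.65 ± 0.20 in low-fat control livers (0.41, adjusted p = 0.663). Ccr3, which was dim, went the other way, at 2.20 ± 0.08 and 2.65 ± 0.07 in these groups (−0.46, adjusted p = 0.537). In that comparison 1 of 14 receptors had an unadjusted p under 0.05 upward and 2 downward, against 3.43% and 3.34% of all genes. Il1r1, the signalling receptor of interleukin 1, was at 9.43 ± 0.75 in low-fat MSX livers and 8.28 ± 0.58 in low-fat control livers (1.15, adjusted p = 0.556). Its means in high-fat MSX and high-fat control livers were 9.18 ± 0.59 and 9.19 ± 0.88, so that Il1r1 had its lowest mean in low-fat control. The receptor list had medians of 0.07 for the diet without extract, −0.12 for the extract on the high-fat diet and 0.01 for the extract on the low-fat diet, the last −0.00061 without low-fat MSX replicate 3.

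Among 23 other chemokines, Ccl22 was the one gene that passed a test, in the average extract effect, where 0.261% of all genes passed. Ccl22, a ligand of Ccr4 made by dendritic cells and macrophages, had 4.08, 3.65 and 3.96 in high-fat MSX livers, against 4.89, 4.69 and 4.82 in high-fat control livers. It had 4.18, 3.86 and 3.74 in low-fat MSX livers, against 4.29, 4.38 and 4.60 in low-fat control livers. On both diets every MSX array lay below every control array. Averaged over both diets, Ccl22 was lower with the extract, with a log2 difference of −0.70 (SE 0.11, adjusted p = 0.0113), and it passed with each of the 12 arrays left out in turn (adjusted p 0.0147 to 0.0362). Its mean lay under the dim level, so that the filter on dim genes removes it. The median of 6 dendritic cell markers lay between −0.30 and −0.11 in high-fat MSX arrays and between −0.03 and 0.17 in high-fat control arrays, and between −0.06 and 0.02 in low-fat MSX arrays and between −0.23 and 0.09 in low-fat control arrays. Their part in the Ccl22 values was not tested. The list of other chemokines had medians of 0.11, −0.07 and 0.01 in the 3 main comparisons, in the order used above.

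Of 29 other cytokines, 0 passed in any comparison. Il1rn, the natural antagonist of the interleukin 1 receptor, had 5.24, 4.97 and 4.96 in high-fat MSX livers, against 5.87, 6.02 and 5.44 in high-fat control livers. These groups did not overlap, with a log2 difference of −0.72 (SE 0.23, adjusted p = 0.576). Il15, a growth factor of NK and memory T cells, was at 4.39 ± 0.29 in high-fat MSX livers and 4.99 ± 0.15 in high-fat control livers (−0.60, adjusted p = 0.492). The medians of this list were −0.01, −0.11 and −0.03, and without low-fat control replicate 2 the first was 0.052 and the last 0.017.

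Of 25 measured genes of NF-kappaB signalling and the inflammasome, 0 passed. In the diet comparison without extract 5 of 25 had an unadjusted p under 0.05 upward and 0 downward, against 3.43% and 3.34% of all genes. For the extract on the high-fat diet 0 were so upward and 4 downward, against 3.48% and 3.51% of all genes. Tlr2, a receptor of bacterial lipoproteins, had 5.15, 5.05 and 5.23 in high-fat MSX livers, 5.63, 5.46 and 5.69 in high-fat control livers, 5.18, 5.02 and 5.14 in low-fat MSX livers and 4.97, 4.85 and 5.36 in low-fat control livers. All 3 high-fat control arrays lay above the other 9. Its log2 difference was 0.53 for the diet without extract (SE 0.14, adjusted p = 0.418) and −0.45 for the extract on the high-fat diet (SE 0.14, adjusted p = 0.539). Tlr4, the endotoxin receptor, was at 5.03 ± 0.22 in low-fat MSX livers and 4.41 ± 0.08 in low-fat control livers (0.62, adjusted p = 0.402). It was at 5.08 ± 0.21 in high-fat control livers (0.67 against low-fat control, adjusted p = 0.491) and 4.92 ± 0.43 in high-fat MSX livers, so that low-fat control had the lowest mean. The list medians were 0.11, −0.12 and 0.11, and the last was −0.034 without low-fat control replicate 2.

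The 21 measured acute phase and STAT3 target genes of hepatocytes, downstream of Il6, had a median of 0.36 in the diet comparison without extract, against −0.00 over all genes, with 20 of 21 above 0, against 48.8% of all genes, and 9 at an unadjusted p under 0.05 upward, against 3.43%. Without high-fat control replicate 2 that median was 0.20. In the 7 comparisons 0 of 21 passed. Orm3, an orosomucoid, had 7.28, 7.80 and 7.28 in high-fat control livers, against 4.44, 6.25 and 5.58 in low-fat control livers, which did not overlap (log2 difference 2.03, SE 0.42, adjusted p = 0.231). Steap4, a metalloreductase induced by inflammation, had 9.64, 10.38 and 9.92 in high-fat control livers, against 8.79, 8.84 and 9.11 in low-fat control livers (1.06, SE 0.23, adjusted p = 0.256). The high-fat MSX arrays of Orm3 were at 5.37, 5.58 and 6.88, below all high-fat control arrays (−1.51, SE 0.42, adjusted p = 0.492). The list median for the extract was −0.17 on the high-fat diet, and −0.016 without high-fat control replicate 2 or −0.30 without high-fat MSX replicate 3. On the low-fat diet it was 0.15, and 0.034 without low-fat MSX replicate 3.

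Of 18 measured genes around interferon gamma, which induces Cxcl9 and Cxcl10, 1 passed, Igtp, in the average extract effect, where 0.261% of all genes did. Igtp, an interferon-induced GTPase, had 7.53, 7.65 and 7.35 in high-fat MSX livers, against 7.95, 8.10 and 8.0 in high-fat control livers. It had 7.57, 7.24 and 6.81 in low-fat MSX livers, against 7.79, 8.16 and 8.16 in low-fat control livers. MSX and control arrays did not overlap on either diet. Its average extract difference was −0.67 (SE 0.12, adjusted p = 0.0427), and of the 12 cases with an array left out it passed in 2, with adjusted p up to 0.12. Gbp3, a guanylate-binding protein, was at 5.15 ± 0.32 in high-fat MSX livers and 5.82 ± 0.10 in high-fat control livers (−0.67, adjusted p = 0.36). The list medians were 0.07, −0.09 and −0.09.

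Of 9 genes of leukocyte adhesion, 0 passed. Icam1, an adhesion molecule induced by tumour necrosis factor, had 6.18, 6.05 and 6.27 in high-fat MSX livers, against 6.89, 6.61 and 6.43 in high-fat control livers and 6.01, 5.99 and 6.43 in low-fat control livers. High-fat control arrays lay above the high-fat MSX arrays without overlap, with a log2 difference of −0.48 (SE 0.16, adjusted p = 0.633). All 9 genes lay above 0 in the diet comparison without extract, against 48.8% of all genes. The list median there was 0.26, and 0.076 without high-fat control replicate 1. The per-array medians of this list were 0.53, 0.15 and −0.11 in high-fat control arrays, so that replicate 1 was high and replicate 3 was within the range of low-fat control arrays (−0.18, −0.15 and 0.10). For the extract the median was −0.29 on the high-fat diet, and −0.13 without high-fat control replicate 1 or −0.50 without replicate 3. On the low-fat diet it was 0.05 and changed sign with an array left out (−0.073 without low-fat control replicate 1, 0.15 without replicate 3).

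**Figure D5:**
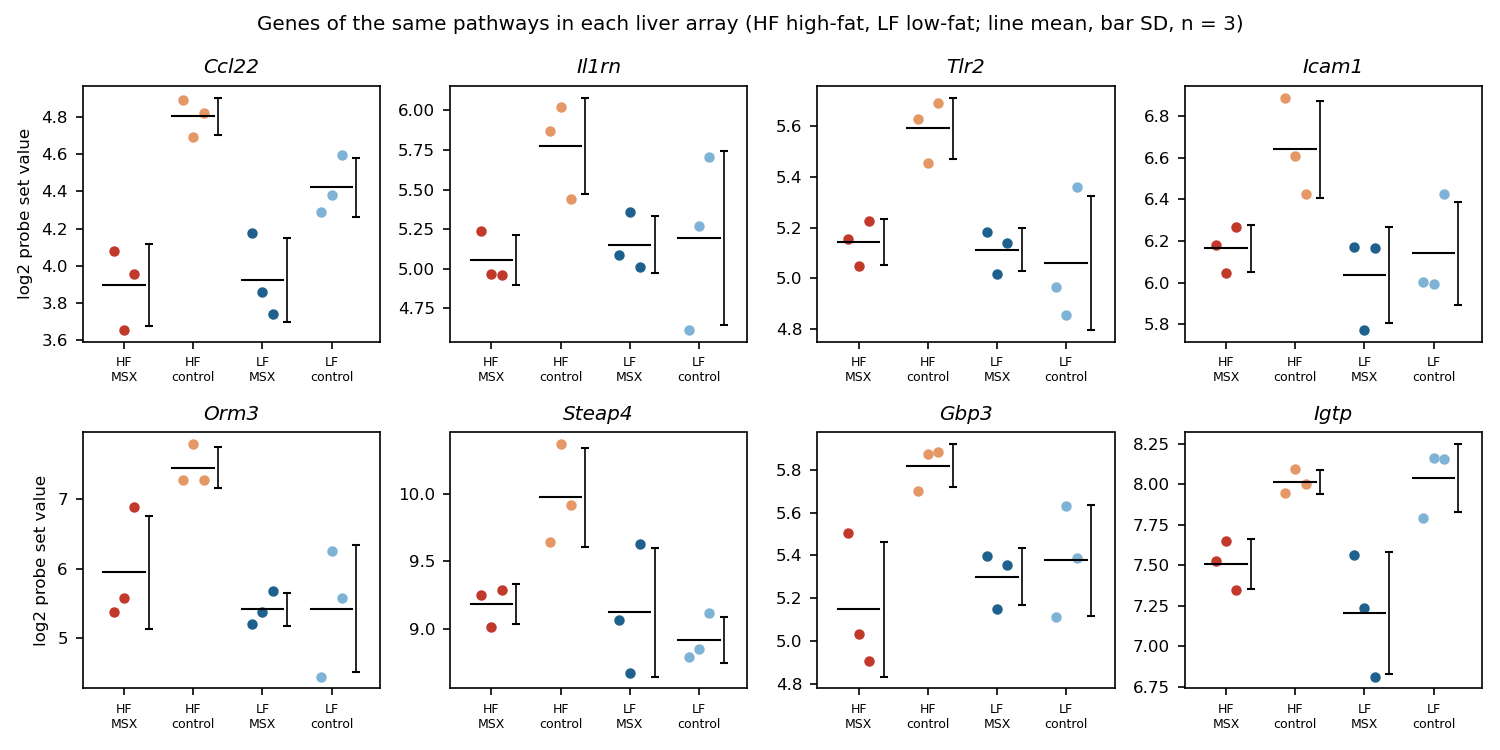
Log2 probe set values of 8 pathway genes in each of the 12 arrays, with the 4 groups on the x axis, a line at the mean and a bar of 1 SD (n = 3), and a y axis that differs between panels. Ccl22 and Igtp are lower in MSX than in control arrays on both diets, and Tlr2 and Orm3 are highest in the high-fat control arrays.

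Genes whose course over the 12 arrays was most like the per-array median of the 10 were sought by the root mean square difference of centred log2 values. Palld, a protein of actin bundles, was closest at 0.11, followed by Ebpl at 0.12, Adamts9, a secreted protease, at 0.12, Cd244a, a receptor of NK cells, at 0.13 and Prc1, a protein of the dividing spindle, at 0.13. These genes were picked for the smallest differences among those searched in the same arrays, so that small values follow from the choice itself. No reference value was set, and a link with the cytokine and chemokine genes was not tested. By the same root mean square difference Ccl5 was the closest of the 10 to their own median, at 0.17, and Cxcl9 the farthest, at 0.57. The median course thus follows some of the 10 more closely than others. Palld averaged 6.50 in high-fat MSX, 6.80 in high-fat control, 6.33 in low-fat MSX and 6.41 in low-fat control livers.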

How the data were processed

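Per the submitters' processing notes, the authors used the Transcriptome Analysis Console to make log2 probe set values from Affymetrix arrays, with version, normalization and summarization not given in the sources used here. The deposited values (0.714 to 14.1) were used as they stand. Of 41345 probe sets, 23525 had 1 gene symbol in the platform annotation. The probe set of highest mean was kept per gene, which left 22184 genes. The test was that of limma (version 3.58.1, R 4.3.3; 4 group means, all 12 arrays, lmFit and eBayes, two-sided), adjusted by Benjamini-Hochberg over all genes within each of 7 comparisons. The procedure was tested on simulated data. An exact permutation of 3 against 3 arrays cannot go below p = 0.1, so none was used. The number of arrays limits the precision.

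The 10 genes and all lists were chosen with earlier results of these data known. Named genes were the 10, all passing genes and the 2 of lowest p of each pathway list in the first 3 comparisons, of which a part is printed, and the 5 genes most alike in course. Alternatives were each array left out, the replicate number as a block, quantile normalization, median centring, a filter on dim genes, other probe set choices, another variance prior and only the compared groups. Taken over all groups, samples with the same number did not deviate together (median correlation −0.01 over 18 pairs), so the number was not taken as a pairing. Between high-fat control and high-fat MSX the correlations were above 0, at 0.11, 0.08 and 0.11 for replicates 1, 2 and 3. Pairs of different numbers ran from −0.09 to 0.16. A pairing within the high-fat diet is therefore not excluded, and the replicate block is given as an alternative. Listed genes without a probe set of 1 symbol were not analysed here.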

Additional observations from a re-analysis of the deposited data

How the results depend on the processing

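None of the 10 cytokine and chemokine genes passed the threshold in any of the 7 comparisons under any alternative, with a lowest adjusted p of 0.0954 (limma, Ccl2, extract on the high-fat diet without high-fat MSX replicate 1). With the replicate number as a block 0 of 10 passed, the median log2 difference was 0.49 for the diet without extract and −0.49 for the extract on the high-fat diet, and 3 genes had an unadjusted p under 0.05 in each. Both medians kept their sign with each array left out (0.26 to 0.80, and −0.50 to −0.34). The filter on dim genes keeps 7 of the 10. With it, 3 genes had an unadjusted limma p under 0.05 for the diet without extract and 2 for the extract on the high-fat diet.

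The count of all genes that passed for the diet without extract was 4, and 10 with the filter on dim genes, 11 with a trended, robust prior and 1 to 5 with an array left out. For the extract on the high-fat diet it was 8, and 5 with the replicate block, 14 with the filter, 28 with that prior, 2 in the compared groups alone and 2 to 6 with an array left out. For the extract on the low-fat diet it was 35, and 20 with the block, 67 with the filter, 23 with the mean of probe sets, 77 with that prior, 10 in the compared groups alone and 6 to 28 with an array left out. For the average diet effect it was 5, and 11 with the filter, 11 with that prior and 1 to 7 with an array left out. For the average extract effect it was 58, and 147 with the filter, 151 with that prior and 34 to 63 with an array left out. For the diet with extract and for the difference of extract effects it was 0, and 0 to 1 with an array left out. The filter tests fewer genes, and the cause of the other shifts was not tested.

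Values that changed sign with an array left out, none of them past the threshold, had these ranges. For the diet without extract they were −0.19 to 0.17 (Il6), −0.042 to 1.06 (Cxcl9) and −0.27 to 0.14 (Ccl4). For the extract on the high-fat diet Il6 ran from −0.00058 to 0.32. For the extract on the low-fat diet they were −0.22 to 0.25 (Ccl3), −0.19 to 0.21 (Ccl4), −0.20 to 0.75 (Il1b), −0.89 to 0.26 (Cxcl9), −0.27 to 0.13 (Cxcl10), −0.034 to 0.22 (Ccl2), −0.30 to 0.039 (Tnf) and −0.38 to 0.078 (Cxcl1). For the diet with extract they were −0.20 to 0.14 (Tnf), −0.24 to 0.17 (Ccl2), −0.15 to 0.064 (Ccl3), −0.69 to 0.077 (Cxcl9), −0.23 to 0.087 (Il6), −0.047 to 0.15 (Ccl5) and −0.045 to 0.25 (Ccl4). For the difference of extract effects they were −0.24 to 0.13 (Il6), −0.073 to 0.33 (Ccl4), −0.39 to 0.57 (Il1b) and −0.37 to 0.0036 (Ccl5). For the average diet effect they were −0.10 to 0.10 (Ccl4, and 0.0034 with array medians centred), −0.14 to 0.051 (Il6) and −0.12 to 0.43 (Cxcl9). For the average extract effect Ccl4 ran from −0.026 to 0.18.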
